A study of Mus musculus with 3 samples.

Results

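The T cell identity and receptor signalling genes described here are 36 mouse genes that encode the signalling chains and coreceptors of the T cell antigen receptor, the surface molecules, kinases and adaptors that act with them, and the transcription factors and exit receptors of T cells. They were taken by name from a gene table of 46951 loci, and all 36 were found. Each also passed a filter of a mean of at least 20 reads over the 3 libraries, which 12939 loci passed. The table comes from total RNA of lymph nodes of the groin (inguinal) of C57BL/6j males, 1 library for each of 3 groups. All groups, the vehicle group included, had first received the contact sensitizer DNFB on the skin of the abdomen. The vehicle group then received EtOH, and each of the others received 4 µg/kg a day of one derivative, 20(OH)D3 or 25(OH)D3. Injections into the peritoneum began 3 days after DNFB and ran for 4 days per the treatment labels, or for 1 week per the series text, and nodes were taken 24 hours after the last one. Genotype beyond the strain, the age of the mice and the number of animals behind each library were not found in the labels. The study asked how the 2 vitamin D3 derivatives change gene expression in the lymph node, and they were compared at a matched dose as 1 pair.

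A T cell reads antigen through a receptor whose antigen-binding chains have almost no tail inside the cell, so the CD3 and zeta chains carry the signal. The coreceptors CD4 and CD8 hold the kinase LCK, which phosphorylates those chains. ZAP70 then docks on them and phosphorylates the adaptors LAT and SLP-76, which assemble the enzymes that raise calcium and activate protein kinase C theta. The transcription factors TCF1, LEF1, BCL11B, GATA3, ETS1 and SATB1 set up and hold the T cell programme, and KLF2 and S1PR1 let resting T cells leave the node and recirculate. A node is a mixture of cells, and Ets1, Klf2, S1pr1, Cd2 and Lcp2 are also used by B cells or other leukocytes.

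The libraries held 7522550 to 8226431 reads, of which 41053 to 56581 fell on the 36 genes. The differences below are ratios of the deposited normalized counts, and levels are FPKM, fragments in proportion to transcript length and library depth. Each ratio is followed by its exact 95% interval from the reads of both libraries, which covers counting error only. Read counts are given as sequenced, before scaling for depth, and values listed in threes are in the order vehicle, 20(OH)D3, 25(OH)D3. No test was possible with 1 library a group, and the difference between animals is in no interval. In bulk RNA, fewer cells of a type and less RNA per cell cannot be told apart. The T cell markers named in the design, the CD3 chains, the coreceptors and the receptor constant genes Trac, Trbc1 and Trbc2, were all detected in every library.

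The libraries also differed in genes of other cells. The 12 adipocyte markers took 0.283% of normalized counts with vehicle, 1.09% with 20(OH)D3 and 0.497% with 25(OH)D3, the 12 myeloid markers 0.285%, 0.398% and 0.251%, and the 8 natural killer cell markers 0.00374%, 0.00588% and 0.00359%. The 18 B cell markers took 0.797%, 0.687% and 0.781%, and 12 genes shared by most leukocytes 0.921%, 0.890% and 0.895%. No gene of these lists was at 0 in any library, and the part of these differences in the results below was not tested.

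With 20(OH)D3 the T cell genes stood lower than with vehicle as a group. Of the 36 genes, 31 had a ratio below 1, against 53.1% of all loci past the filter, and the median log2 ratio was -0.30, against -0.03 over all loci. A count at least 20% below vehicle was found for 17 genes, where 15.2% of all loci were that far below. With FPKM rescaled to TPM, which gives each library an equal sum, the median was -0.49 and 26 genes were that far below, against -0.19 and 34.0% of all loci. A count at least 25% above, the same distance on the log scale, was found for 2 genes, Sh2d1a and Tbx21, where 20.7% of all loci were that far above. Genes past these marks are called lower and higher below. No gene was 2-fold apart either way, against 5.02% of all loci. Summed over the 36 genes, the ratio was 0.812 (0.802 to 0.822). The 20(OH)D3 library held the lowest value of the 3 for 30 of the 36 genes, and for 41.6% of all loci.

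**Figure D1:**
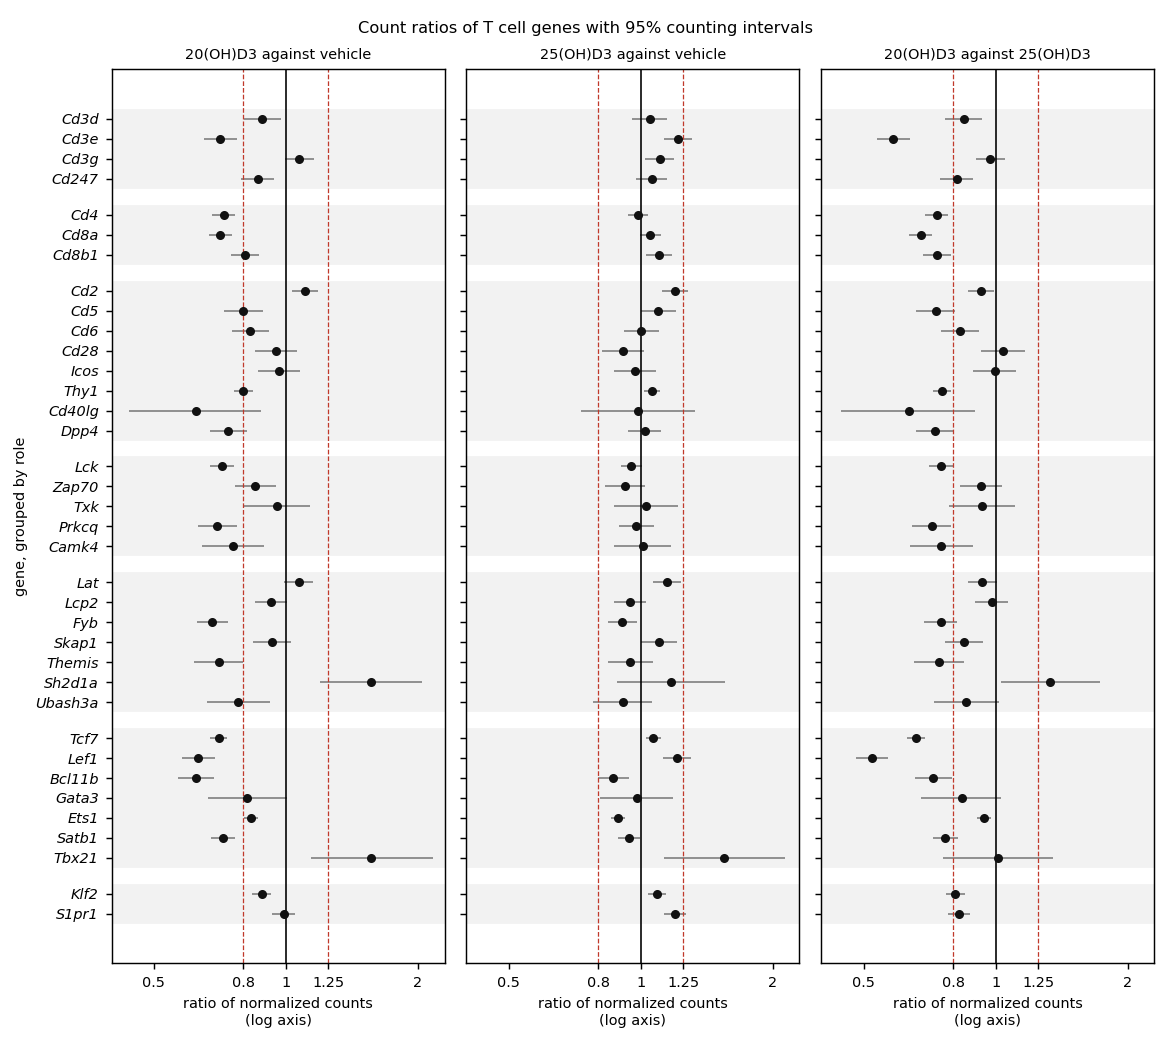
Ratio of normalized counts on a log axis for each of the 36 genes, one panel per comparison, with bars for the 95% counting interval and dashed lines at 20% below and 25% above. Against vehicle, 17 genes lie past the lower dashed line with 20(OH)D3 and 0 with 25(OH)D3, and the points that lie past the upper line are Sh2d1a and Tbx21 with 20(OH)D3 and Tbx21 with 25(OH)D3.

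With 25(OH)D3 the same genes lay on both sides of the vehicle level, and how many lay below it depended on the scale. A ratio below 1 was found for 15 of 36, against 47.9% of all loci, and the median log2 ratio was 0.03, against 0.01 over all loci. In TPM 29 of 36 had a ratio below 1 and the median was -0.07, against -0.12 over all loci, and on log2(FPKM + 1) 11 had. In normalized counts none was called lower, where 9.76% of loci were, and Tbx21 was called higher, where 12.6% of loci were. None was 2-fold apart, against 1.49% of loci. The summed ratio was 1.03 (1.01 to 1.04), and the 25(OH)D3 library held the highest value of the 3 for 19 genes, and for 32.0% of all loci. Both comparisons share the vehicle library, so they are not independent.

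Set directly against each other at the same dose, the derivatives, which differ in the side-chain carbon that carries the hydroxyl group, gave ratios of 20(OH)D3 to 25(OH)D3 below 1 for 33 of 36 genes, against 52.7% of loci. The median log2 ratio was -0.30, and -0.02 over all loci. By the same marks 17 genes were called lower, against 15.7% of loci, and Sh2d1a was called higher, against 19.6% of loci. None was 2-fold apart, against 3.92% of loci, and the summed ratio was 0.791 (0.781 to 0.801). Lef1, at 0.522 (0.479 to 0.568), was the farthest from 1. Cd3e stood at 0.583 (0.535 to 0.636), Tcf7 at 0.658 (0.628 to 0.689), Cd8a at 0.673 (0.634 to 0.716) and Prkcq at 0.714 (0.643 to 0.792). At the other end, the intervals for Icos, 0.994 (0.887 to 1.11), Cd28, 1.04 (0.926 to 1.17), Lcp2, 0.979 (0.897 to 1.07), and Cd3g, 0.971 (0.900 to 1.05), held 1, which does not show that the derivatives act alike on them. This comparison shares a library with each of the others.

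**Figure D2:**
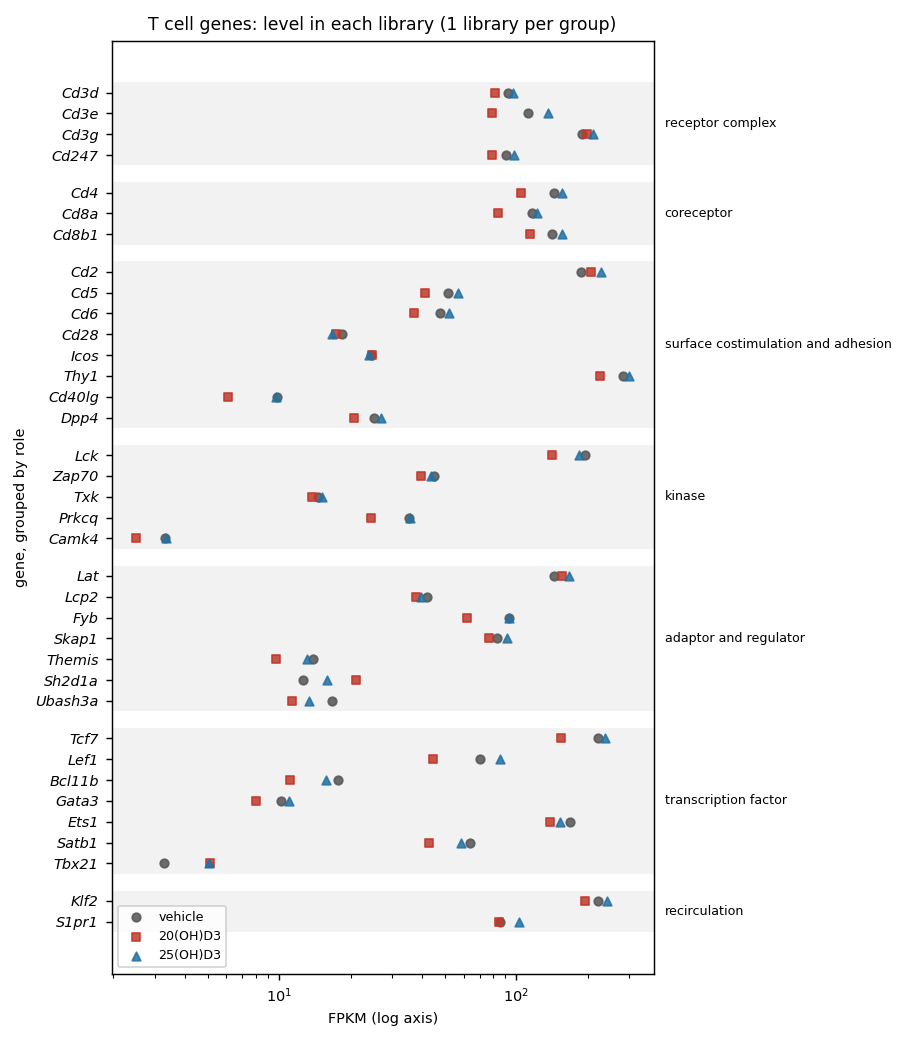
Level of each of the 36 genes in the 3 libraries in FPKM on a log axis, ordered by role, 1 point per library. The points of a gene lie close together beside the spread between genes, which runs from 3.27 for Tbx21 to 281 for Thy1 with vehicle.

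The 4 invariant signalling chains differed among themselves. Cd3e, which encodes the epsilon chain present in both CD3 heterodimers, was read at 112 FPKM with vehicle, 79.2 with 20(OH)D3 and 136 with 25(OH)D3. Its ratio was 0.709 (0.649 to 0.774) for 20(OH)D3 and 1.22 (1.13 to 1.31) for 25(OH)D3, so the vehicle library stood between the other two. Cd3g, the gamma chain, was read at 190, 199 and 210 FPKM, with ratios of 1.07 (0.992 to 1.16) and 1.10 (1.02 to 1.19). Cd3d, the delta chain, was read at 91.8, 81.2 and 96.6 FPKM, with ratios of 0.883 (0.802 to 0.972) and 1.05 (0.956 to 1.15). The 3 CD3 genes lie side by side on chromosome 9 of GRCm38, Cd3g at 44969572 to 44980431 on the minus strand, Cd3d at 44981793 to 44987052 on the plus strand and Cd3e at 44998743 to 45009590 on the minus strand. Within a library, where scaling between libraries plays no part, Cd3e took 35.7% (34.2 to 37.3) of the reads of these 3 genes with vehicle, 28.4% (26.8 to 30.1) with 20(OH)D3 and 38.5% (36.9 to 40.0) with 25(OH)D3. The share with 20(OH)D3 thus lay below both others beyond counting error. Cd247, the zeta chain, shares its locus with the model Gm16565 and was read at 90.4, 79.1 and 97.6 FPKM, with ratios of 0.862 (0.790 to 0.940) and 1.06 (0.975 to 1.15).

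Coreceptor messages stood lower with 20(OH)D3 for both lineages. Cd4, the coreceptor of helper T cells, was read at 144 FPKM with vehicle, 105 with 20(OH)D3 and 156 with 25(OH)D3, from 2923, 1883 and 2680 reads. Its ratio was 0.721 (0.680 to 0.764) for 20(OH)D3 and 0.984 (0.933 to 1.04) for 25(OH)D3. The FPKM of a locus also moves with how fragments were assigned to isoforms, and for Cd4 the FPKM ratio of 25(OH)D3 was 1.08, on the other side of vehicle from the count ratio. Cd8a, the alpha chain of the cytotoxic T cell coreceptor, was read at 116, 83.6 and 122 FPKM, with ratios of 0.708 (0.666 to 0.752) and 1.05 (0.996 to 1.11). In both genes the 20(OH)D3 library was the lowest of the 3. Cd8b1, the beta chain, was read at 141, 114 and 156 FPKM, with ratios of 0.808 (0.750 to 0.869) and 1.10 (1.03 to 1.18). Of the reads of Cd4 and Cd8a together, Cd4 took 51.8% (50.5 to 53.1) with vehicle, 52.2% (50.6 to 53.9) with 20(OH)D3 and 50.1% (48.8 to 51.5) with 25(OH)D3, and these intervals overlap. The beta chain took 38.5% (37.1 to 40.0), 41.7% (39.9 to 43.5) and 39.6% (38.2 to 41.1) of the reads of Cd8a and Cd8b1, and the intervals of vehicle and 20(OH)D3 overlap narrowly.

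Among the 8 other surface molecules, 4 (50%, against 15.2% of all loci) were called lower with 20(OH)D3 and none higher (against 20.7%). Thy1, a glycolipid-anchored protein used to identify mouse T cells, had the highest level of the 36 genes with vehicle, 281 FPKM, and was read at 225 FPKM with 20(OH)D3 and 299 with 25(OH)D3. Its ratio of 0.800 (0.762 to 0.839) for 20(OH)D3 lay just inside the 20% mark, and that for 25(OH)D3 was 1.06 (1.01 to 1.11). Cd5, a brake on receptor signalling, was read at 51.7, 41.3 and 56.8 FPKM, with a 20(OH)D3 ratio of 0.799 (0.721 to 0.885), also just inside. Its relative Cd6 lay just outside, at 0.828 (0.751 to 0.913), from 47.6, 37.0 and 52.0 FPKM. Both are found on nearly all T cells. Dpp4, a surface peptidase also called CD26, had 1094, 723 and 1040 reads and a ratio of 0.739 (0.672 to 0.813), while its FPKM ratio was 0.82. Cd40lg, the ligand by which helper T cells license B cells and dendritic cells, had 97, 54 and 89 reads and a ratio of 0.623 (0.438 to 0.878), the widest interval among the genes that stood lower. The costimulatory receptors stayed near vehicle in both treated libraries: Cd28 was read at 18.4, 17.3 and 16.8 FPKM, with ratios of 0.948 (0.849 to 1.06) and 0.912 (0.817 to 1.02), and Icos at 24.3, 24.7 and 23.9 FPKM. Cd2, an adhesion receptor that mouse B cells also carry, stood above vehicle in both, with 188, 207 and 227 FPKM and ratios of 1.11 (1.03 to 1.18) and 1.20 (1.12 to 1.28).

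All 5 kinases had a ratio below 1 with 20(OH)D3, against 53.1% of all loci, and 3 of them (60%, against 15.2%) were called lower. Lck, which starts the cascade and shares its locus with the microRNA gene Mir8119, was read at 194 FPKM with vehicle, 142 with 20(OH)D3 and 183 with 25(OH)D3. Its ratios were 0.714 (0.672 to 0.760) and 0.951 (0.899 to 1.01). Prkcq, which encodes protein kinase C theta, had 978, 609 and 890 reads and ratios of 0.697 (0.629 to 0.772) and 0.976. Camk4, a calcium-dependent kinase, was read at 3.29, 2.50 and 3.33 FPKM, and its 372, 252 and 350 reads gave a 20(OH)D3 ratio of 0.758 (0.643 to 0.892). These are the kinases called lower. Zap70, which binds the phosphorylated chains, was read at 44.9, 39.6 and 43.8 FPKM, with ratios of 0.851 (0.764 to 0.948) and 0.920 (0.829 to 1.02). Txk, a TEC family kinase, gave 0.956 (0.804 to 1.14) and 1.03. Neither reached the mark, and Zap70's interval overlaps that of Camk4.

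The 7 adaptors lay on both sides of vehicle. With 20(OH)D3, 3 (42.9%, against 15.2% of all loci) were called lower and 1 (14.3%, below the 20.7% of all loci) higher. Fyb, which encodes the adaptor ADAP that links the receptor to integrins and shares its locus with Gm7666, had 1512, 918 and 1279 reads, with ratios of 0.679 (0.625 to 0.738) and 0.908 (0.842 to 0.978). Its FPKM ratio for 25(OH)D3 was 1.003, level with vehicle. Themis, needed for positive selection in the thymus, had 612, 384 and 540 reads and a 20(OH)D3 ratio of 0.702 (0.616 to 0.799). Ubash3a, a member of the STS phosphatase family that dampens receptor signalling, had 362, 252 and 307 reads and a ratio of 0.779 (0.661 to 0.917). These are the adaptors called lower. Lat, the membrane scaffold, lay on the other side of vehicle, with 144, 155 and 166 FPKM and ratios of 1.07 (0.991 to 1.15) and 1.15 (1.07 to 1.24). Lcp2, which encodes SLP-76, gave 0.926 (0.850 to 1.01), and Skap1, the partner of ADAP, 0.928 (0.840 to 1.03). Sh2d1a, which encodes SAP, the adaptor of the SLAM receptors, had 99, 138 and 108 reads, a 20(OH)D3 ratio of 1.56 (1.20 to 2.04) and a 25(OH)D3 ratio of 1.17 (0.883 to 1.55). It was the one gene called higher with 20(OH)D3 than with 25(OH)D3, at 1.33 (1.03 to 1.73), and its locus in the table, chromosome X from 42502453 to 43429126, spans 34.5 times the annotated gene. The loci of Tcf7 (11.0 times), Lcp2 (10.3), Cd247 (2.50) and Dpp4 (1.71) also span more than the gene, so their values can hold reads from neighbouring sequence.

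Of the 7 transcription factors, 4 (57.1%, against 15.2% of all loci) were called lower with 20(OH)D3 and 1 (14.3%, below the 20.7% of all loci) higher. Tcf7, which encodes TCF1, a factor of resting and memory T cells, was read at 220 FPKM with vehicle, 155 with 20(OH)D3 and 236 with 25(OH)D3, from 4737, 2972 and 4713 reads. Its ratios were 0.702 (0.670 to 0.735) and 1.07 (1.02 to 1.11). Its partner Lef1, at 131109026 to 131224356 on the plus strand of chromosome 3, was read at 70.0, 44.6 and 85.6 FPKM, from 1443, 813 and 1625 reads, with ratios of 0.630 (0.578 to 0.687) and 1.21 (1.13 to 1.30). In both genes the vehicle library stood between the treated ones. Bcl11b, at 107910403 to 108003602 on the minus strand of chromosome 12 (GRCm38), keeps cells committed to the T lineage and was read at 17.8, 11.1 and 15.7 FPKM, from 1273, 709 and 1027 reads. Its ratio of 0.623 (0.568 to 0.684) for 20(OH)D3 was, with Cd40lg, the lowest of the 36 genes, and that for 25(OH)D3, 0.866 (0.796 to 0.940), was the lowest in that comparison. Satb1, a chromatin organizer that shares its locus with Gm36931, had 2472, 1589 and 2163 reads and ratios of 0.719 (0.675 to 0.766) and 0.939 (0.886 to 0.995). Ets1, also abundant in B cells, had the most reads of the 36 genes, 7136, 5305 and 5898, and ratios of 0.832 (0.803 to 0.862) and 0.887 (0.857 to 0.918). Gata3, the factor of the T helper 2 branch, shares its locus with 9230102O04Rik and had 226, 165 and 206 reads, with a ratio of 0.817 (0.664 to 1.00). Tbx21, which encodes T-bet, the factor of the T helper 1 branch and of natural killer cells, had 70, 98 and 101 reads. It stood higher in both treated libraries, at 1.57 (1.14 to 2.16) and 1.55 (1.13 to 2.13), and the derivatives differed from each other by a ratio of 1.01 (0.758 to 1.35). The natural killer markers were also higher with 20(OH)D3, with a median log2 ratio of 0.58 over the 6 past the read filter, but at -0.11 with 25(OH)D3, and their part in the Tbx21 values was not tested.

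The promoters of the transcription factor genes with the largest and smallest ratios are shown because TCF1 and LEF1 bind a core of CTTTG. The windows run from 250 bases before to 50 after the start in RefSeq (GRCm38.p6), where 23 of the 36 genes have an entry. Capitals mark CTTTG or its reverse complement.
Bcl11b, chr12:108003365-108003664, minus strand: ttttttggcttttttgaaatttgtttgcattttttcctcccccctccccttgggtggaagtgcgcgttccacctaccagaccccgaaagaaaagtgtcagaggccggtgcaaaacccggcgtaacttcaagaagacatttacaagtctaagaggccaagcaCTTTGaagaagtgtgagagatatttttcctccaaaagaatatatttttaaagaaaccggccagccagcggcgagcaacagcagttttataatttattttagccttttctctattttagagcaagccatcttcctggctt
Lef1, first of its windows, chr3:131110047-131110346, plus strand: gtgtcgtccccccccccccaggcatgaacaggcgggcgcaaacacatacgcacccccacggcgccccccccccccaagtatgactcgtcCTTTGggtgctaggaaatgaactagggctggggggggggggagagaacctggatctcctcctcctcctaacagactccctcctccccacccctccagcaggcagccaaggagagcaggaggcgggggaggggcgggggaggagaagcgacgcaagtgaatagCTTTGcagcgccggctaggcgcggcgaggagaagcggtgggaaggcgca
Tbx21, chr11:97115282-97115581, minus strand: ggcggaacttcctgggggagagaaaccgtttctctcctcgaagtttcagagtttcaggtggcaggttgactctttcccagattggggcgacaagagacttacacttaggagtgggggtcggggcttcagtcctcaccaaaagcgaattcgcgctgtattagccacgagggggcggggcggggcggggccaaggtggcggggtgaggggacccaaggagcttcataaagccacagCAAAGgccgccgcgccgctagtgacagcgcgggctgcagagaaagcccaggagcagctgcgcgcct
The core begins at position -89 from the start in Bcl11b, at -161 and 2 in Lef1 and at -16 in Tbx21. Over the 36 windows of the 23 genes it was found on either strand in 22 (61.1%), against 53.9% of all 32851 windows. Some windows of the same gene overlap and hold the same match, so the 22 are not separate sites or genes. The core thus stands in the windows of genes on both sides of vehicle, and a match of 5 letters is a description only. The ETS core GGAA was in 35 of the 36 windows and in 96.0% of all windows.

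In normalized counts neither of the recirculation genes passed a mark in any comparison. In TPM, Klf2 was called lower with 20(OH)D3 against vehicle (as were 34.0% of all loci) and against 25(OH)D3 (19.4%). Klf2, which drives expression of exit and homing receptors, was read at 221, 195 and 241 FPKM, with ratios of 0.881 (0.837 to 0.927) and 1.09 (1.04 to 1.14). S1pr1, the receptor by which T cells leave the node, was read at 85.6, 84.7 and 103 FPKM, with ratios of 0.989 (0.931 to 1.05) and 1.20 (1.13 to 1.27). With 25(OH)D3 both intervals lay above 1. The ratios of 20(OH)D3 to 25(OH)D3 were 0.809 (0.769 to 0.851) and 0.825 (0.778 to 0.875).

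The T cell genes differed among themselves by more than counting error. As shares of a pair within 1 library, Tcf7 took 77.6% (76.5 to 78.6) of the reads of Tcf7 and Cd3g with vehicle, 69.4% (68.0 to 70.8) with 20(OH)D3 and 77.0% (75.9 to 78.1) with 25(OH)D3. Against the 18 B cell markers, the 36 genes together took 46.3% (46.0 to 46.6) of reads with vehicle, 44.3% (44.0 to 44.6) with 20(OH)D3 and 46.5% (46.2 to 46.7) with 25(OH)D3. The B cell markers were themselves below vehicle with 20(OH)D3. Of the 18, 17 had a ratio below 1, against 53.1% of all loci, and the median log2 ratio was -0.20, against -0.03. Called lower were 2 (11.1%), against 15.2% of all loci. Both groups thus stood below vehicle, the 36 genes as a whole further. By role, the 4 signalling chain genes stood level with the B cell markers (median -0.20, summed ratio 0.884 against 0.882). By median, the coreceptors (-0.47), other surface molecules (-0.30), kinases (-0.40) and transcription factors (-0.48) stood further below, the adaptors (-0.11) and recirculation genes (-0.10) less far. By summed ratio, the coreceptors (0.736), kinases (0.749) and transcription factors (0.751) stood further below. The other surface molecules (0.866, 0.841 to 0.892), adaptors (0.876, 0.844 to 0.911) and recirculation genes (0.924, 0.889 to 0.960) overlapped the B cell markers (0.871 to 0.892).

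**Figure D3:**
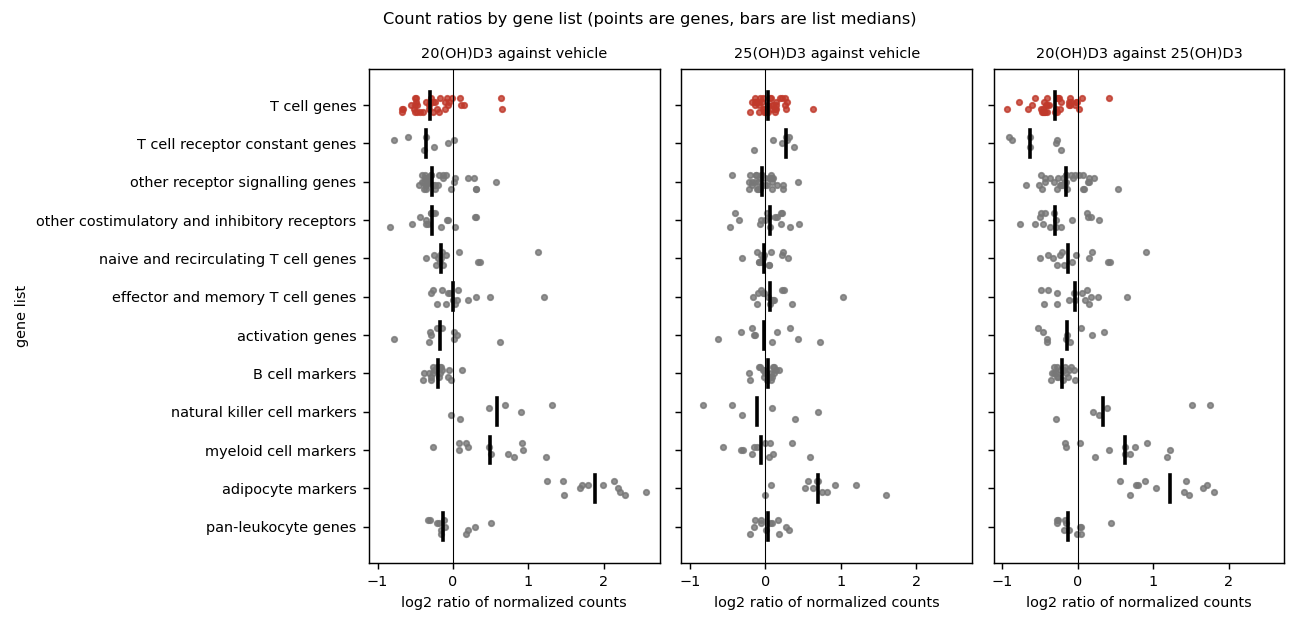
Log2 ratio of normalized counts for the 36 genes and for other gene lists, one panel per comparison, with a point per gene and a bar for the list's median. With 20(OH)D3 the adipocyte, natural killer and myeloid markers have medians above 0 (1.89, 0.58 and 0.49), and the T cell genes (-0.30) and B cell markers (-0.20) medians below 0.

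The constant genes of the receptor's own antigen-binding chains were measured as a related list of 7. With 20(OH)D3, 4 of 7 (57.1%) were called lower, against 15.2% of all loci, and the median log2 ratio was -0.36. Of those 4, only Trac had an interval below 1. The others were gamma chain genes with few reads, Tcrg-C1 (73 with vehicle and 50 with 20(OH)D3), Tcrg-C2 (61 and 36) and Tcrg-C4. Their intervals all held 1. With 25(OH)D3 the median was 0.28 and 1 of 7 (14.3%) was called higher, near the 12.6% of all loci. Trac, the alpha chain constant gene, was read at 518 FPKM with vehicle, 405 with 20(OH)D3 and 624 with 25(OH)D3, with ratios of 0.779 (0.740 to 0.820) and 1.21 (1.16 to 1.27). The beta chain constant genes, which are near-identical copies and can exchange reads, stood nearer to vehicle with 20(OH)D3: Trbc1 gave 1.01 (0.920 to 1.11) and Trbc2 0.954 (0.882 to 1.03). With 25(OH)D3 they gave 1.22 (1.12 to 1.33) and 1.16 (1.08 to 1.253). The alpha and beta genes thus differed with 20(OH)D3 beyond counting error, although the chains pair in 1 receptor. The lowest ratio of the list with 20(OH)D3 was that of the gamma chain gene Tcrg-C4, 0.576 (0.301 to 1.07), from 33 and 17 reads.

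Other genes of the pathway, from a list of 32 that includes many that B cells share, gave a median log2 ratio of -0.28 with 20(OH)D3, with 14 called lower and 1 higher, and -0.04 with 25(OH)D3, with 1 lower and 1 higher. As shares, 43.8% were called lower and 3.13% higher with 20(OH)D3, against 15.2% and 20.7% of all loci. With 25(OH)D3 the shares were 3.13% each way, below the 9.76% and 12.6% of all loci. Dgka, a kinase that removes diacylglycerol, was lowest with 20(OH)D3 at 0.731 (0.697 to 0.768) and stood at 1.18 (1.13 to 1.23) with 25(OH)D3. Sit1, an inhibitory transmembrane adaptor, was highest in both, at 1.48 (1.22 to 1.80) and 1.35 (1.11 to 1.64), from 192, 254 and 241 reads. Grap2, the adaptor that joins SLP-76 to LAT, was the one lower with 25(OH)D3, at 0.734 (0.669 to 0.805).

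Of 16 other costimulatory and inhibitory receptors, 6 (37.5%, against 15.2% of all loci) were called lower with 20(OH)D3. None was called higher, against 20.7% of all loci, and the median log2 ratio was -0.28. With 25(OH)D3 the median was 0.06, with 3 lower (18.8%, against 9.76% of all loci) and 1 higher (6.25%, against 12.6%). Havcr2, which encodes TIM-3 and is also made by myeloid cells, was lowest in both treated libraries, at 0.557 (0.439 to 0.703) and 0.723 (0.584 to 0.894). Cd27, a receptor of the TNF family on T and B cells, stood lower with 20(OH)D3 at 0.798 (0.722 to 0.882) and higher with 25(OH)D3 at 1.36 (1.248 to 1.48). The naive and recirculating list of 14 had a median of -0.15 with 20(OH)D3, with 1 lower (7.14%, against 15.2% of all loci) and 3 higher (21.4%, near the 20.7% of all loci), and of -0.02 with 25(OH)D3, with none past a mark. Il7r, the receptor that keeps resting T cells alive, was the lower one, at 0.783 (0.727 to 0.844), and Ly6c1, which vessel endothelium also makes, was highest at 2.19 (1.93 to 2.48). Of the effector and memory list, 15 of 18 passed the filter, with a median of 0.00 and 2 higher with 20(OH)D3, and 0.06 and 2 higher with 25(OH)D3. That is 13.3% in each comparison, below the 20.7% of all loci with 20(OH)D3 and near the 12.6% with 25(OH)D3. Gzmb, a granzyme of killer cells, had 25, 52 and 48 reads and ratios of 2.33 (1.42 to 3.91) and 2.06 (1.245 to 3.49).

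A ratio also followed the length of the transcript across all loci. Over 12635 loci with a length in the GENCODE M21 annotation, the Spearman correlation of the log2 ratio with the longest transcript was -0.25 with 20(OH)D3 and -0.30 with 25(OH)D3. Over the 36 genes it was -0.24 and -0.52, a description over genes of shared libraries. With 20(OH)D3 the T cell genes stood lower than all loci at each length: the medians were -0.25 for the 6 under 2000 bases, -0.29 for the 21 between and -0.36 for the 9 of at least 4000 bases, against 0.18, -0.02 and -0.11 over all loci. With 25(OH)D3 they were 0.10, 0.08 and -0.09, against 0.13, 0.03 and -0.06. With the length trend of all loci taken off, the median of the 36 genes with 20(OH)D3 was -0.29 and 17 were called lower, against 12.5% of all loci. Of these, 15 were among the 17 before: Cd3d and Cd8b1 came in, and Cd5 and Ubash3a dropped out.

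**Figure D4:**
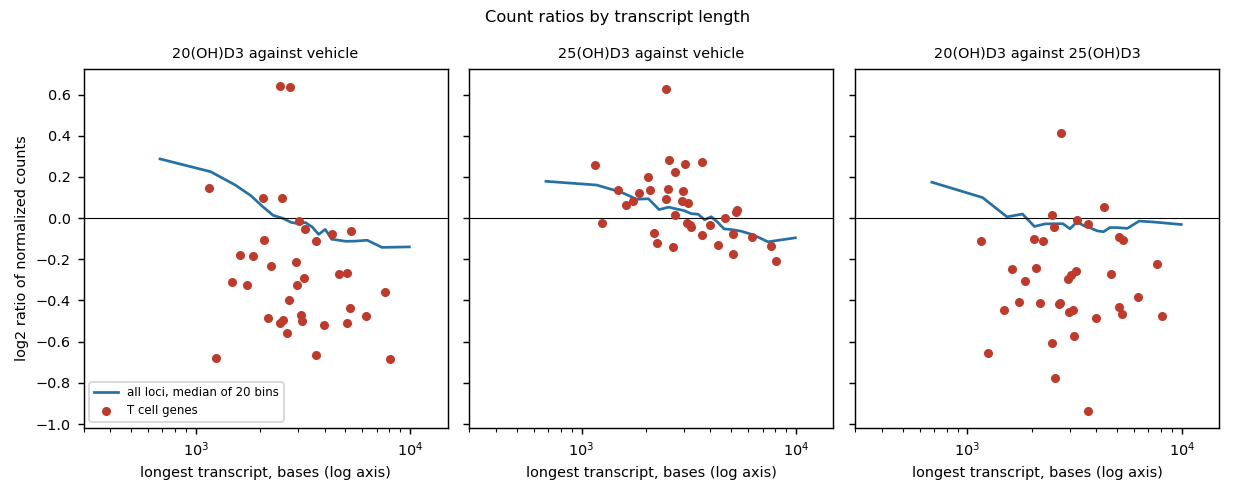
Log2 ratio of normalized counts against the longest annotated transcript in bases (log axis), with the 36 genes as points and the median of all loci in 20 bins of length as a line, one panel per comparison. With 20(OH)D3 against vehicle the points are centred lower (median -0.30) than with 25(OH)D3 against vehicle (median 0.03).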

How the data were processed

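Total RNA of 3 libraries, grouped by the agent in the labels, was analysed; female mice were not analysed here. The tools were STAR 2.7.0c, Cufflinks 2.2.1 with Cuffdiff, and Cuffnorm, on GRCm38, per the submitters' processing notes; settings, annotation release and strandedness: not given in the sources used here. Deposited by the authors were, per locus and library, an FPKM value and a normalized count signal. The deposited signal was whole reads times 1 factor per library (0.938, 1.05 and 1.01 in vehicle, 20(OH)D3 and 25(OH)D3): 99.9% of loci with reads came within 0.02 of a whole count after division, less certainly for 25(OH)D3, whose factor is near 1. A locus can merge overlapping genes. Locus starts counted from 0 in the table and were raised by 1, and 2 of its lines were empty. Log2 ratios used a pseudocount of 0.5 on normalized counts and loci with a mean of at least 20 reads; intervals are exact 95% Clopper-Pearson. Loci at least 20% below, 25% above or 2-fold apart were counted. All 36 genes may be named and, of each other list, the genes with the extreme ratios, those 2-fold apart, and Trac, Trbc1 and Trbc2. The genes and lists were chosen with earlier results of these data known. Alternatives changed scaling, pseudocount, filter and length trend. Calculations used Python 3.11.15, pandas 2.3.3 and scipy 1.17.1, and were tested on simulated data.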

Additional observations from a re-analysis of the deposited data

How the results depend on the processing

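No paired analysis was possible because each group has 1 library, and leaving out a replicate was not possible for the same reason. Of 322 single-gene values per comparison, 35 moved beyond their counting interval for 20(OH)D3 against vehicle, 27 for 25(OH)D3 against vehicle and 8 between the derivatives. No called value changed sign, which for 25(OH)D3 against vehicle covers 1 called gene, Tbx21. The 322 include values without a filter and with a mean of 100 reads, settings that leave each ratio as it was and so could not move it. The median log2 ratio for 20(OH)D3 against vehicle was -0.49 after rescaling FPKM to TPM, -0.28 with median-of-ratios scaling and -0.28 scaled to pan-leukocyte genes. It was -0.32 with totals that leave out immunoglobulin, receptor segment, mitochondrial and small RNA genes. With median of ratios, pan-leukocyte scaling and a pseudocount of 10, 15 genes were called lower, against 13.3%, 13.8% and 13.7% of all loci. Cd5 and Thy1 dropped out in each of these settings. TPM moved the median of all loci to -0.19 and the share of loci called lower and higher from 15.2% and 20.7% to 34.0% and 13.0%; the median of the 36 genes minus that of all loci was -0.27 in normalized counts and -0.30 in TPM, and 26 genes were called lower. For 25(OH)D3 TPM moved all loci to -0.12 and those shares from 9.76% and 12.6% to 19.1% and 6.79%. The median of the 36 genes there was 0.086 on log2(FPKM + 1), -0.070 in TPM (2 lower), 0.0017 without those gene classes, 0.016 scaled to pan-leukocyte genes and -0.0017 with the length trend off. Between the derivatives it was -0.34 on log2(FPKM + 1), -0.38 in TPM, -0.27 with median of ratios, -0.26 scaled to pan-leukocyte genes and -0.28 with the length trend off. Requiring a mean of 100 reads removed Tbx21 and Cd40lg and left 1 gene higher with 20(OH)D3 and 0 with 25(OH)D3. In every one of the 10 settings 11 genes were called lower with 20(OH)D3: Cd3e, Cd4, Cd8a, Lck, Prkcq, Fyb, Themis, Tcf7, Lef1, Bcl11b and Satb1. The settings that change only the filter leave each ratio as it was, so they could only drop a gene. The Cd4 share was 55.4%, 55.7% and 56.2% from FPKM, and 39.8%, 38.9% and 37.8% with Cd8b1 added to Cd8a. The length relation and the Cd8b1 share were chosen after seeing the data; the table's own length column was empty, so the planned version was not run. The cause of these shifts was not tested.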

Other observations

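Genes that an engaged receptor switches on within hours did not follow 1 direction. Of 11 activation genes, 10 passed the read filter, with a median log2 ratio of -0.18 with 20(OH)D3 and -0.03 with 25(OH)D3. Nr4a3, an orphan nuclear receptor induced by receptor signals, was lowest in both, at 0.577 (0.447 to 0.743) and 0.646 (0.506 to 0.821) of vehicle. Tnf, an inflammatory cytokine that myeloid cells also make, was highest in both, at 1.54 (1.22 to 1.93) and 1.65 (1.32 to 2.07), from 134, 184 and 206 reads. Between the derivatives, Cd69, an early activation marker that holds T cells in the node, stood at 0.691 (0.597 to 0.798).

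Within a library, Tbx21 took 23.6% (18.9 to 28.9) of the reads of Tbx21 and Gata3 with vehicle, 37.3% (31.4 to 43.4) with 20(OH)D3 and 32.9% (27.7 to 38.5) with 25(OH)D3. The share with 20(OH)D3 lay above vehicle beyond counting error, and that with 25(OH)D3 overlapped it. Gzma, a granzyme in the natural killer list, had 60, 134 and 41 reads and a 20(OH)D3 ratio of 2.50 (1.83 to 3.45).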
